A study of Mus musculus with 6 samples.

Results

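The genes Lgals1, S100a6 and S100a4 were followed in embryonic stem cells of the mouse (mES) and in its embryonic fibroblasts (mEF), as 3 windows on the plus strand of mm9, the genome build named in the submitters' processing notes. The windows are chr15:78757100-78760900 for Lgals1, chr3:90416800-90418400 for S100a6 and chr3:90407600-90410000 for S100a4, and each was padded by 500 nt on both sides. An alignment record belonged to a gene when its 5' end lay in the padded window. In all, 7579 of the 1209744 deposited records did so, 1579 in mES and 6000 in mEF. The cells were labeled singly in drops with barcoded primers that bind the poly(A) tail, so that the reads start within transcripts at a varying distance from their 3' end. The mES cells were of the line V6.5, grown with serum and leukemia inhibitory factor (LIF), and the mEF cells were a commercial preparation (10.5 p.c.) grown with serum and without LIF. The 6 libraries all carry both cell types in their labels, and the authors set a cell type for every barcode and pooled the reads into 1 aggregate of records per type. The sources used here do not say whether that assignment followed the list of barcodes or the expression of the cells, and if it followed expression, these genes could have helped to set the groups they are compared between. With 1 pool for each type and no replicate given by the labels, no test between cell types was possible. In such pools, fewer cells that express a gene, less of its RNA per cell and, for the lower mES levels, RNA or reads carried over from mEF drops cannot be told apart. The authors estimated cross-talk between drops from a mix of human and mouse cells, and gave rates for cells sharing a drop or a barcode. In the pools used here no background share was measured. Drops with several cells or barcodes could not be sought, as the records carry no barcode.

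Galectin-1, encoded by Lgals1, is a small lectin that binds beta-galactosides on cell surface and matrix glycoproteins and is secreted by fibroblasts and other mesenchymal cells. The S100 proteins are small calcium-binding proteins with paired EF-hands that change shape when they bind calcium and then attach to partner proteins. S100A4 is also called fibroblast-specific protein and binds non-muscle myosin, and S100A6 is also called calcyclin. Many S100 genes lie in a cluster on mouse chromosome 3, and in the RefSeq annotation of GRCm38.p6 the gene order there is S100a4, S100a5, S100a6. Lgals1 and S100a4 are often read as mesenchymal genes.

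The records came from 3 sequencing runs, numbered here by size. Run 1 held 438528 mES and 293937 mEF records, run 2 held 203401 and 135387, and run 3 held 108810 and 29681. The runs are not replicates of a cell type, and values given by run are descriptions only. Levels are given as CPM, records per 1000000 records of the same aggregate or run, with exact 95% Poisson intervals. These intervals cover counting error only, since PCR makes many reads from a molecule. A level of 3 records, taken as the floor, was 4.00 CPM in mES and 6.54 CPM in mEF. All records of the 3 genes had the highest mapping score, against 77.9% of all mES and 77.8% of all mEF records, and no record lay on the minus strand of the padded windows.

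As the annotation at hand is of another build (GRCm38, GENCODE M21), the identity of the genes was checked through intron lengths, which need no coordinates. An alignment across an intron spans the read length plus the intron. The usual span was 35 nt in runs 1 and 2 and 45 nt in run 3. The 3 windows held 708 records with a longer span, and in all 708 the excess equalled the length of an annotated intron of the gene named by the window. All 7 introns of the matching transcripts were seen. The gaps of these 708 records match the exon junctions by length, and the other records of the windows had no such gap. The reference sequences of the junctions follow. Each has the last 15 bases of the upstream exon in lower case and the first 15 bases of the downstream exon in capitals.
Lgals1 junction of exons 1 and 2: tcaatcatggcctgtGGTCTGGTCGCCAGC
Lgals1 junction of exons 2 and 3: ctcggacgccaagagCTTTGTGCTGAACCT
Lgals1 junction of exons 3 and 4: gggagcatcacagagGTGTGCATCACCTTT
S100a6 junction of exons 1 and 2: gctgtcgaccgtgcgCTTCTTCTAGCCCAG
S100a6 junction of exons 2 and 3: ctcaccattggctccAAGCTGCAGGATGCT
S100a4 junction of exons 1 and 2: ctctctcttggtctgGTCTCAACGGTTACC
S100a4 junction of exons 2 and 3: cctagcttcctggggAAAAGGACAGATGAA

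The transcripts are those of GENCODE, with 4 exons in Lgals1 and 3 each in S100a6 and S100a4. In the mEF aggregate, Lgals1 had 2 records with a gap of 1165 nt (intron 1), 34 with a gap of 1583 nt (intron 2) and 157 with a gap of 193 nt (intron 3). In the mES aggregate, 0 of 263 Lgals1 records had a gap, which allows a share of up to 1.14%, while the share in mEF was 13.4% (193 of 1440 records, 95% exact binomial interval 11.7 to 15.3). These figures count PCR copies as independent. The mES records lay at 14 distinct 5' ends, and the mEF gapped records at 2, 2 and 4 (introns 1, 2 and 3). With so few 5' ends, no difference in splicing between the cell types is read from the shares. S100a6 had 12 mES and 199 mEF records with a gap of 516 nt (intron 1), and 51 mES and 185 mEF records with a gap of 286 nt (intron 2). S100a4 went the other way. In mES, 13 of its records had a gap of 1190 nt (intron 1) and 54 had a gap of 587 nt (intron 2), together 77.9% of 86 records (67.7 to 86.1), while in mEF 1 of 422 records had a gap (0.237%, 0.00600 to 1.31). The S100a4 gapped records in mES rested on 2 positions only, with 54 records at 1 of them, so that this share rests on few distinct 5' ends.

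**Figure D1:**
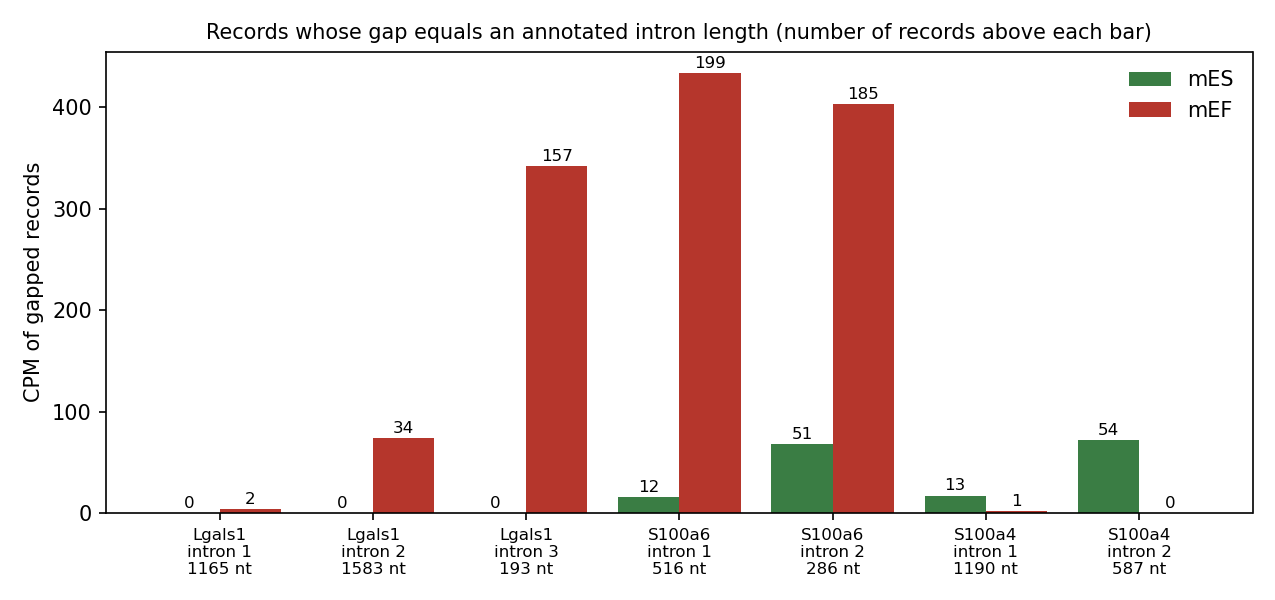
Gapped records by intron. Bars give the CPM of records whose gap equals the length of the annotated intron (x axis, with the gene, the intron and its length), in mES (green) and mEF (red), and the number over each bar is the number of records. The 3 Lgals1 introns have 0 mES records, both S100a6 introns have records in mES and mEF, and the S100a4 introns have 67 mES records and 1 mEF record.

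The first question was how far these mesenchymal genes separate the pools of the 2 cell types. All 3 genes had a higher level in mEF than in mES, by 8.96-fold for Lgals1, 8.03-fold for S100a4 and 5.50-fold for S100a6. S100a6 had the highest level of the 3 in both aggregates and S100a4 the lowest.

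Lgals1 had 263 mES records, or 350.3 CPM (95% interval 309 to 395), and 1440 mEF records, or 3137 CPM (2977 to 3304). The ratio of mEF to mES was 8.96 (95% exact conditional interval 7.85 to 10.3), a log2 ratio of 3.16. By run, its mES level was 413 CPM (run 1), 334 CPM (run 2) and 129 CPM (run 3), and its mEF level was 3382, 3169 and 573 CPM. The mEF level was above the mES level of the same run in all 3 runs and the intervals did not overlap within a run, but the mEF interval of run 3 (334 to 917 CPM) overlapped the mES intervals of run 1 (355 to 477 CPM) and run 2 (260 to 424 CPM).

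S100a6 had 1230 mES records, or 1638 CPM (1548 to 1733), and 4138 mEF records, or 9015 CPM (8743 to 9294). It took 0.902% of all mEF records. The records of the series were joined into 29069 loci (5' ends on the same strand at most 500 nt apart), of which only 5 held more mEF records. This sets a sum beside single loci, as the S100a6 records themselves fell into loci of 1931 and 2207 mEF records. The ratio of mEF to mES was 5.50 (5.16 to 5.87), a log2 ratio of 2.46. Its mES level was 1895 CPM (run 1), 1844 CPM (run 2) and 221 CPM (run 3), and its mEF level was 9648, 9203 and 1887 CPM. The mEF level of run 3 thus lay at the mES level of the other runs, while within run 3 the mEF level was 8.55 times the mES level (5.22 to 14.4).

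S100a4, at the lowest level of the 3 genes, had 86 mES records, or 115 CPM (91.6 to 141), and 422 mEF records, or 919 CPM (834 to 1011). The ratio was 8.03 (6.35 to 10.2), a log2 ratio of 3.00. Its mES level was 121 CPM (run 1), 157 CPM (run 2) and 9.19 CPM (run 3, a single record), and its mEF level was 956, 953 and 404 CPM. The ratio within run 3 was 44 with an interval of 6.51 to 1881, which that single mES record sets. The mEF and mES intervals did not overlap within any run, but the mEF interval of run 3 (209 to 706 CPM) reached down to the mES interval of run 2 (108 to 222 CPM).

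**Figure D2:**
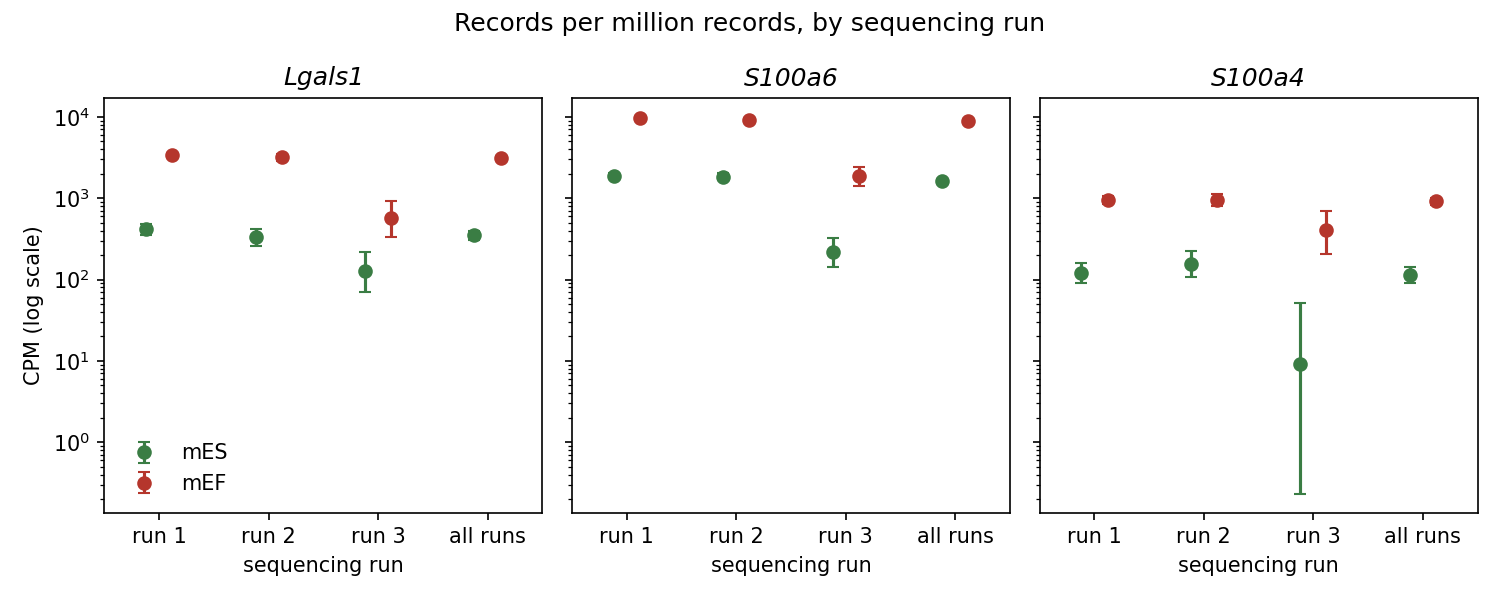
Levels of the 3 genes by sequencing run. Points give CPM (y axis, log scale) in mES (green) and mEF (red) for each run and for all runs together, with exact 95% Poisson intervals, which cover counting error only. In each run the mEF point of a gene is above its mES point, and both are lower in run 3 for all 3 genes.

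The levels in run 3 were below those in runs 1 and 2 in both aggregates. With runs 1 and 2 together, the ratio of mEF to mES was 8.54 for Lgals1, 5.06 for S100a6 and 7.21 for S100a4, so leaving out run 3 moved none of them by 1.5 times. Run 1 alone gave 8.19, 5.09 and 7.91, and run 2 alone gave 9.48, 4.99 and 6.06. As runs 1 and 2 shared nearly all distinct 5' ends of the genes, their ratios are not independent of each other. Run 3 alone gave a lower ratio for Lgals1, 4.45 (2.07 to 9.75, from 14 mES and 17 mEF records), and higher ratios for S100a6 and S100a4. What differs between run 3 and the other runs was not tested.

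Levels were compared between the genes per kb of annotated exon, since the annotated transcripts differ in length (800 nt in Lgals1, 731 nt in S100a6 and 498 nt in S100a4). The S100a6 length includes an exon 1 of 345 nt, of which the records covered only 31 to 51 bases. Its values per kb would therefore be higher on the observed length. Whether records scale with transcript length in this protocol was not tested. On this scale the level in mEF was 12333 CPM per kb for S100a6 (11960 to 12714), 3922 for Lgals1 (3722 to 4129) and 1846 for S100a4 (1674 to 2031). In mES it was 2241 (2118 to 2370), 438 (387 to 494) and 230.0 (184 to 284) in the same order. The order held in both aggregates with intervals that did not overlap. Within run 3, the mEF intervals of Lgals1 (417 to 1146 CPM per kb) and S100a4 (419 to 1418) overlapped, and S100a4 had the higher value, 812 against 716. In mES, the run 3 interval of Lgals1 (87.9 to 269.8) overlapped those of S100a6 (193 to 449) and S100a4 (0.467 to 103). In run 2, the mES intervals of Lgals1 (325 to 529.8) and S100a4 (216 to 446) overlapped as well.

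Distinct 5' ends were counted as well, because copies of a molecule share their 5' end. Without barcodes in the read names, molecules of different cells at a position count once. Lgals1 had 14 distinct positions in mES and 47 in mEF, S100a6 had 50 and 83, and S100a4 had 6 and 18. Per 10000 distinct positions of the aggregate, Lgals1 had 2.60 in mES and 18.6 in mEF, a ratio of 7.17 (3.88 to 14.1). The ratio was 3.55 for S100a6 (2.47 to 5.14) and 6.41 for S100a4 (2.44 to 19.7). The direction of all 3 genes was that of the records, and the ratio of S100a6 was lower than the 5.50 found in records.

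The number of records per position was 18.8 in mES and 30.6 in mEF for Lgals1, 24.6 and 49.9 for S100a6, and 14.3 and 23.4 for S100a4. Over all loci with at least 50 records, the median was 16.3 in mES and 20.5 in mEF. Each gene thus had more records per position in mEF, and S100a6 in mEF had the most. A single S100a6 position, chr3:90417106, held 1345 mEF records, 32.5% of the gene's mEF records (95% exact binomial interval 31.1 to 34.0), and 248 mES records, 20.2% (18.0 to 22.5). In S100a4, the position with the most mES records, chr3:90409073, held 54 of 86 (62.8%, 51.7 to 73.0). It held 0 of the 422 mEF records, which allows a share of up to 0.711%. These intervals and this limit count PCR copies as independent, though records at a position may be copies of a molecule. Without the position with the most records in each aggregate, the ratio was 9.63 for Lgals1, 4.65 for S100a6 and 18.5 for S100a4.

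Of the distinct positions of Lgals1, 5 were found in both aggregates, of 14 in mES and 47 in mEF. For S100a6 it was 26 of 50 and of 83, and for S100a4 1 of 6 and of 18. Runs 1 and 2 shared nearly all positions, for example 13 of 13 for Lgals1 in mES and 73 of the 76 of run 1 for S100a6 in mEF. Run 3 shared fewer. The 3 genes had 11 mES positions in run 3, of which run 1 held 4, and 21 mEF positions, of which run 1 held 11. Over all loci, run 1 held 8.37% of the mES and 8.32% of the mEF positions of run 3.

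The place of the 5' ends along the genes was then described. Positions at most 200 nt apart were joined into stretches, a distance chosen after seeing the data. Lgals1 had 4 stretches, as many as its exons, S100a6 had 3, as many as its exons, and S100a4 had 4, against 3 exons. In S100a4, exon 1 ended within chr3:90407713-90407737 and intron 1 has 1190 nt. The stretch at chr3:90408622 thus lay within intron 1 of the matching transcript. It held 34 mEF records without a gap, 8.06% of the gene's mEF records, and 0 mES records.

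In Lgals1, the stretch at chr15:78757155-78757222, 55 nt after the start of the window, had a level of 81.3 CPM in mES against 887 CPM in mEF, a ratio of 10.9. The stretch at chr15:78758422-78758467 had 0 mES records and 107 mEF records at 4 positions, or 233 CPM. That is 58.3-fold higher in mEF with 3 counts per aggregate in place of 0. The value depends on that substitute and is not a lower bound, since PCR makes many records from a molecule. The stretch at chr15:78760070-78760215 had 33 mES records and 411 mEF records, 20.4-fold higher in mEF, and the last, at chr15:78760435-78760844, had 225 and 1122 CPM, 4.98-fold higher in mEF. The level was thus higher in mEF in each stretch, and the ratio was smallest next to the 3' end. In the order given, the mES records rested on 2, 0, 2 and 10 distinct positions. No trend along the gene is read from so few. The stretch next to the 3' end took 64.3% of the mES records (58.1 to 70.1) and 35.8% of the mEF records (33.3 to 38.3). These intervals count PCR copies as independent.

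In S100a6, the stretch at chr3:90417099-90417129 had a level of 453 CPM in mES against 4207 CPM in mEF, a ratio of 9.29. The stretches at chr3:90417668-90417826 and chr3:90418113-90418298 had ratios of 4.08 and 4.05. The stretch at the 5' side held 46.7% of the mEF records and 27.6% of the mES records.

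In S100a4, the stretch next to the 3' end, at chr3:90409683-90409911, had a level of 25.3 CPM in mES against 658 CPM in mEF, 26.0-fold higher in mEF. It held 71.6% of the mEF records (67.0 to 75.8) and 22.1% of the mES records (13.9 to 32.3), with PCR copies counted as independent. The stretch at chr3:90408930-90409073, which holds the position with 54 mES records, had a level of 71.9 CPM in mES against 95.9 CPM in mEF, a ratio of 1.33. A single position at chr3:90408622 held 34 mEF records and 0 mES records, 18.5-fold higher in mEF with 3 counts in place of 0. That value depends on the substitute and is not a lower bound. The stretch at chr3:90407692-90407713 had 17.3 CPM in mES and 91.5 CPM in mEF, 5.28-fold higher in mEF. The S100a4 ratio of all stretches together thus joins values from 1.33 to 26.0.

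**Figure D3:**
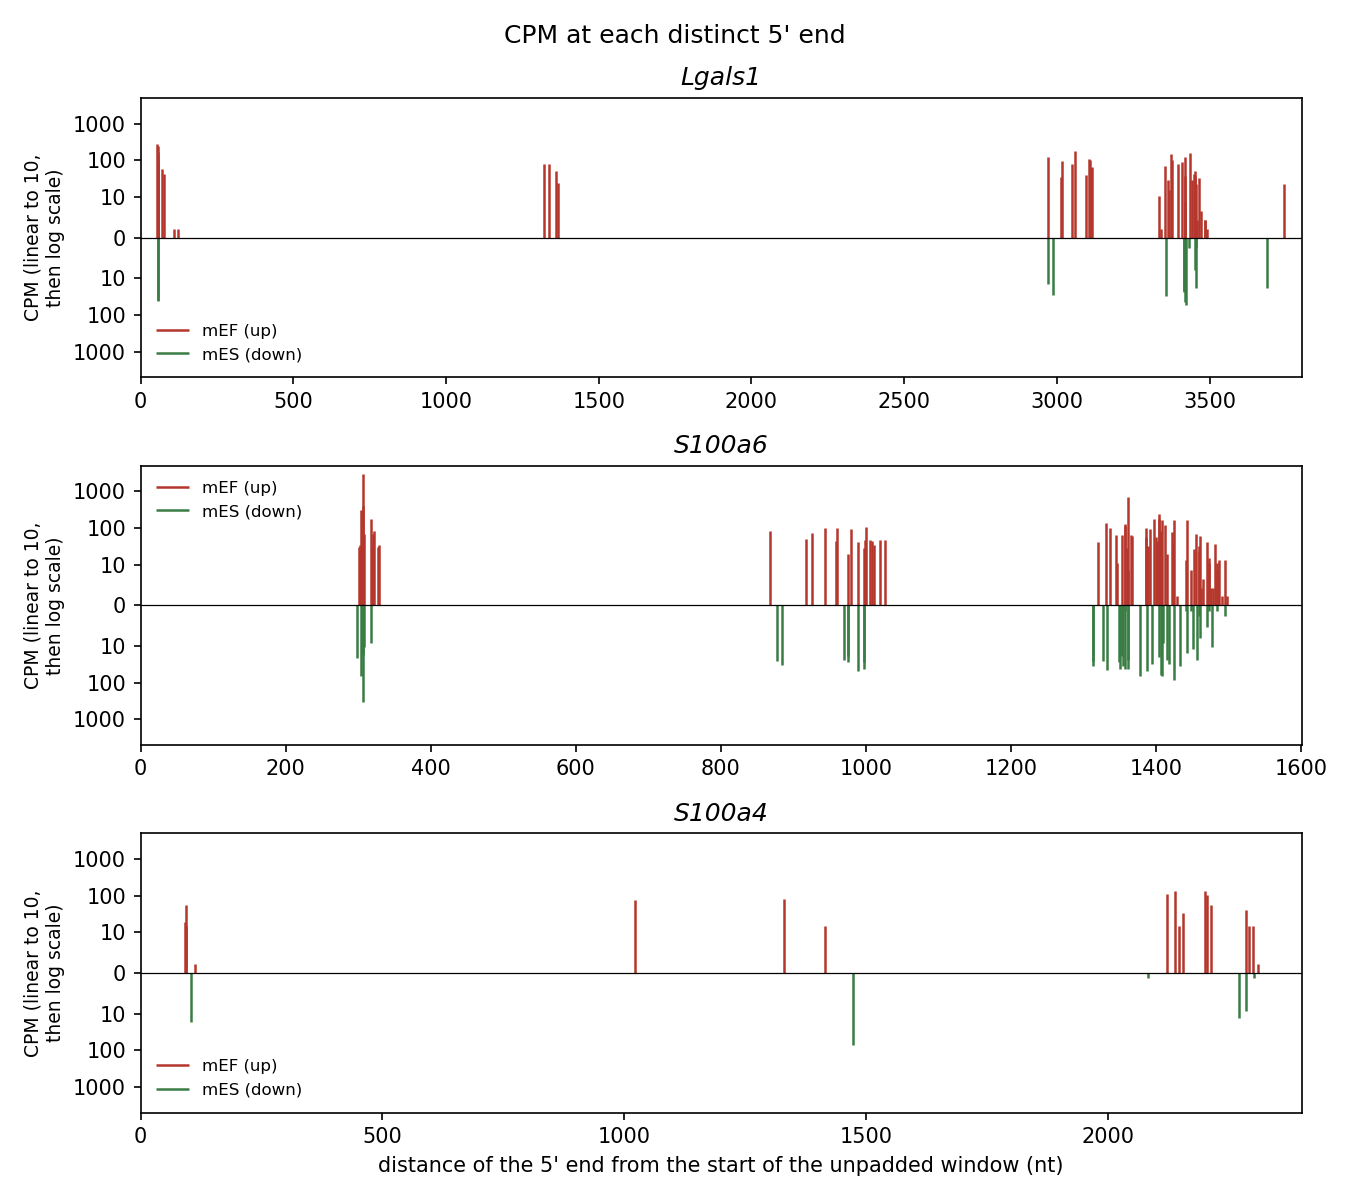
The 5' ends along the 3 genes. Each line is a distinct 5' end, placed by its distance in nt from the start of the unpadded window (x axis), with its CPM (y axis, linear up to 10 and log beyond) in mEF upward in red and in mES downward in green. Lines gather in stretches, 4 in Lgals1, 3 in S100a6 and 4 in S100a4, and the S100a6 line nearest to the start of its window lies 299 nt from it.

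The gapped records also bound the end of exon 1 in the coordinates of the files. From the lowest 5' end of the gene to the end of exon 1 there were 68 to 89 bases in Lgals1, where the annotated exon has 80, and 22 to 46 bases in S100a4, where it has 36. In S100a6 there were 31 to 51 bases, where the annotated exon 1 of the matching transcript has 345. The S100a6 records of both aggregates thus began near the 3' end of the annotated exon 1, and the lowest lay 299 nt after the start of the window, which held no record before it. S100a4 records began 92 nt after the start of their window.

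The reference sequences before the annotated starts of the 2 S100 genes are shown because their records differ in this respect, so that for S100a6 the annotated start, and the sequence before it, lies well upstream of the observed 5' ends. Of the 3 genes, 2 matched the promoter table. Shown are the 250 bases before the RefSeq gene start on the plus strand of GRCm38.p6, at chr3:90603520-90603769 for S100a4 and chr3:90612644-90612893 for S100a6, with matches to the motifs searched in capitals.
S100a4: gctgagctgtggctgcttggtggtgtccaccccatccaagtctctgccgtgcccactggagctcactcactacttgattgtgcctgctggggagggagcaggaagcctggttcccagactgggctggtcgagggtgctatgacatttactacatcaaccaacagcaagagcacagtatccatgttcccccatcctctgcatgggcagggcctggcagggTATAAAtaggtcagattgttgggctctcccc
S100a6: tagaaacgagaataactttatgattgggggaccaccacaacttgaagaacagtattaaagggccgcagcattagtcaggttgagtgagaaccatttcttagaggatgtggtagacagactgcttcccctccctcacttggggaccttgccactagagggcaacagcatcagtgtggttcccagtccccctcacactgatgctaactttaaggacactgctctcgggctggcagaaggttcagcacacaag
Searched on both strands were the TATA box letters TATAAA, the GC box letters GGGCGG, the AP-1 letters TGANTCA and the E-box letters CACGTG. S100a4 held TATAAA, starting 31 bases before the gene start, and none of the others. S100a6 held none of the 4. Of the 32851 upstream sequences of the same length in the table, 12.4% held TATAAA, 32.7% GGGCGG, 6.75% TGANTCA and 6.02% CACGTG. A match describes letters only, and these sequences are of another build than the records.

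The genes were then set beside all loci of the series. Of 4321 loci with 50 or more records in the sum of mES and mEF, 24.6% were over 4-fold higher in mEF in records (3 counts in place of 0), and their median log2 ratio of mEF to mES was -0.10. All 3 genes were over 4-fold, with a median log2 ratio of 3.00. Many of those loci rest on few positions, and of the 429 that also had at least 20 positions summed over the aggregates, a minimum chosen after seeing the data, 9.32% were over 4-fold higher in mEF. Of these 429 loci, 7 had a higher ratio than Lgals1, 7 a higher ratio than S100a4 and 25 a higher ratio than S100a6. The 429 include loci of the genes themselves. The Lgals1 locus chr15:78760070-78760844, at a log2 ratio of 2.91, is among the 25. No S100a4 locus reached 20 positions, and the S100a4 loci had ratios of 5.28, 2.36 and 26.0. The S100a6 locus chr3:90417668-90418298, among the 429, had a log2 ratio of 2.02, below the 2.46 of the gene. The ranks of all 3 genes thus compare a sum with single loci. In distinct positions, Lgals1 and S100a4 were over 4-fold and S100a6, at 3.55-fold, was not, against 8.94% of the 1119 loci with at least 10 positions. The windows of the genes join 8 of the loci, 3 in Lgals1, 3 in S100a4 and 2 in S100a6, so the gene values are sums over several loci.

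**Figure D4:**
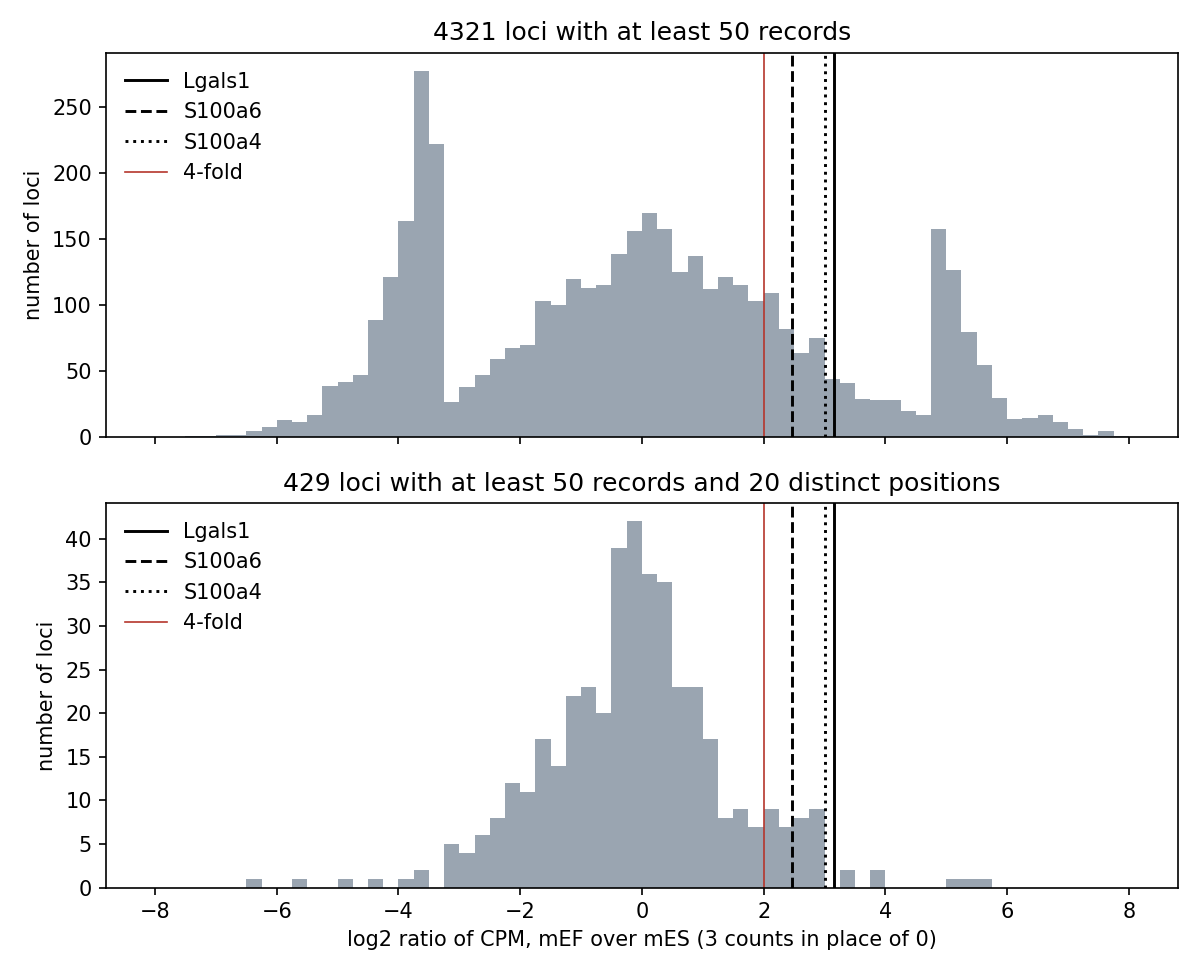
The 3 genes among the loci of the series. Histograms give the number of loci (y axis) by log2 ratio of CPM, mEF over mES (x axis, 3 counts in place of 0), for 4321 loci with at least 50 records (top) and the 429 of them with at least 20 distinct positions (bottom), with black lines at the values of the genes and a red line at 4-fold. All 3 genes, at 2.46 to 3.16, lie beyond 4-fold, where 24.6% of the upper and 9.32% of the lower loci lie. The side peaks of the upper panel include loci with no record in an aggregate.

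Around the S100 windows, few other records were found. In chr3:90307600-90518400, which reaches 100 kb beyond the windows on both sides, S100a4 and S100a6 held 1316 of 1388 mES records and 4560 of 4623 mEF records. No record lay in the 6800 nt between their unpadded windows, where RefSeq places S100a5 between the genes in its own build. Besides the members, 3 loci there had at least 10 records. The plus-strand locus at chr3:90346516-90347007 had a level of 62.6 CPM in mES against 15.3 CPM in mEF, the minus-strand position chr3:90315106 had 0 mES and 56 mEF records, and the plus-strand position chr3:90319936 had 17 mES and 0 mEF records. The loci at chr3:90346516-90347007 and chr3:90319936 were thus not higher in mEF, while chr3:90315106 was. Each rests on at most 2 distinct positions per aggregate, so nothing is concluded from them about this stretch of chromosome 3.

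Of 25 other S100 and galectin genes and partners in a fixed list (among them S100a8, S100a9, S100a10, Lgals3 and Anxa2), levels by window were not analysed here, for lack of an annotation of the files' build. Through gaps equal to an intron length that a single annotated gene of that chromosome and strand has, a search added after seeing the data, 2 of the 25 were found. S100a11, another EF-hand protein of the family, had 23 mEF records with the gap of 3497 nt, all at 1 position, and 0 in mES. The locus that holds them, chr3:93324416-93324442, had 12 mES records and 106 mEF records (231 CPM). S100a13, which takes part in the release of growth factors that lack a signal peptide, had 17 mES records with the gap of 8310 nt and 0 mEF records. They lay at chr3:90319936, the single position named above. This search reaches only genes with reads across an intron and says nothing of the other 23.

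The loci whose levels over the 3 runs in both aggregates (6 values of log2(CPM + 1)) were nearest to those of Lgals1, by Euclidean distance among 4313 loci with at least 50 records outside the windows, are given by position. The nearest, at a distance of 1.08, was on the minus strand at chr1:71632140-71632782, with 329 CPM in mES and 2113 in mEF. The next, at 1.26, was on the minus strand at chr11:55208051-55209347, with 336 and 2481 CPM. The third, at 1.74, was on the plus strand at chr12:110783036-110784040, with 508 and 2015 CPM. S100a6 lay at a distance of 4.37 from Lgals1, with 135 loci closer, and S100a4 at 4.93, with 170 closer. The 3 genes share a direction between the aggregates and differ in level. The 3 loci were picked as the nearest of 4313, so their smaller distances are no result about the genes.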

How the data were processed

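The authors aligned the reads with TopHat (version not given in the sources used here) to mm9, gave each barcode a cell type, merged the records by type and converted them to positions. The deposited records give position, strand, read name and a mapping score, which takes 4 values, the highest of them 255. The deposited list of 1152 barcodes, which names a cell type beside each barcode, was not used, as read names carry no barcode.

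A record's 5' end was its lowest base (plus strand) or its highest base (minus strand), counted from 1. Groups come from the labels of the 6 libraries, which all name both cell types. CPM values used all records, the ratio intervals are exact conditional intervals, and 3 counts replaced 0. A gap was a span at least 20 nt over the usual span of the run. Intervals cover counting error only. No test between cell types was made. The gene set, lists and rules were chosen with earlier results of these data known. Named were the 3 genes, the 3 loci nearest to Lgals1 and the loci with at least 10 records near the S100 windows. The locus step was tested on simulated data. For the like loci, distances used log2 values computed here from CPM plus 1. Alternatives changed the unit counted, mapping score, strand, padding, scaling, repeated records, runs and locus minimums. Marker genes of the cell types were not analysed here, as the annotation used (GENCODE M21, GRCm38) is of another build. Computations used Python 3.11.15, numpy 2.4.6, pandas 2.3.3 and scipy 1.17.1.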

Additional observations from a re-analysis of the deposited data

How the results depend on the processing

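The 3 genes were higher in mEF under all 14 alternatives, with log2 ratios of 2.15 to 3.27 for Lgals1, 1.83 to 3.10 for S100a6 and 2.60 to 5.46 for S100a4, and 11, 7 and 11 of the alternatives stayed within the counting interval of the value reported. Outside it, distinct positions gave 2.84 for Lgals1 and 1.83 for S100a6, and median-of-ratios scaling, which lowers every ratio alike, gave 2.87 and 2.17. For S100a6, run 1 gave 2.35, run 2 gave 2.32, run 3 gave 3.10, all but run 3 gave 2.34, and leaving out the position with most records in each aggregate gave 2.22. For S100a4, run 2 gave 2.60, run 3 gave 5.46 and leaving out that position gave 4.21, and for Lgals1 run 3 gave 2.15. Leaving out the top position was chosen after seeing the data. Counting both strands, changing the padding or keeping only the highest mapping score left the counts of the 3 genes unchanged. No record of theirs lay on the minus strand or in the padding, and all had the highest score. These alternatives could therefore not move the counts, and they add no support to the tallies above. The share of loci over 4-fold higher in mEF, 24.6%, was 14.8% at a minimum of 200 records, 8.94% in distinct positions and 9.32% with at least 20 positions. The cause of these differences was not tested. No paired analysis was possible because the result comes from 1 pool per cell type. The S100a4 ratio rests on 6 mES positions, and its value in run 3 on a single mES record.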
